A study of Homo sapiens with 3 samples.

Results

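The data describe 10 smooth-muscle actin and contractile genes (ACTG2, ACTA2, TAGLN, CNN1, CNN2, MYL9, TPM1, TPM2, CALD1 and MYLK) in 3 lung cancer cell lines. The genes were taken by their symbol on the array, with every probe of each, and are 10 of the 43316 genes measured. H1975 (NCI-H1975) is an osimertinib-sensitive human non-small cell lung cancer line harboring mutated EGFR. OR1 and OR2 are resistant lines, each called a clone in the methods, that were selected independently from H1975 with rising doses of osimertinib, an inhibitor of mutant EGFR, to a maximum of 2 μmol/L during 4 months. All 3 lines were grown in the same serum-containing RPMI medium, and the labels do not say whether osimertinib was present when RNA was taken. Total RNA of each line was labeled with Cy3 and hybridized to 1 Agilent array, so each line is a single sample. The genes were proposed with their ratios in these arrays already known. Those ratios are therefore given as a description, and no test was run on them.

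Smooth muscle contracts when myosin slides along actin filaments. MYLK, the myosin light chain kinase, starts this by phosphorylating regulatory light chains such as MYL9. ACTA2 and ACTG2 encode the smooth-muscle α- and γ-actins, tropomyosins (TPM1, TPM2) lie along the filament, and calponin (CNN1), caldesmon (CALD1) and transgelin (TAGLN, also called SM22α) bind to it. CNN2 is a calponin that many non-muscle cells express. Many of these genes carry CArG boxes, the sites bound by serum response factor (SRF), and several are raised in myofibroblasts and in epithelial cells during epithelial-mesenchymal transition.

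An array value depends on the stretch of transcript that its probe covers, and the genes were covered by 17 probes of 60 bases, 1 spot each. The 7 probe sequences shown here are for ACTA2, TAGLN, MYL9, TPM1 and TPM2. They set genes higher in both resistant lines, or for ACTA2 in OR1 alone, beside the level TPM1. Probes that may lie outside the coding sequence are not shown. Those shown are the ACTA2 probe (chr10:90697899-90697958, minus strand), the second TAGLN probe (chr11:117074574-117074963, plus strand), the MYL9 probe (chr20:35177541-35177600, plus strand), both TPM2 probes (chr9:35682088-35682147 and chr9:35684244-35684303, minus strand) and 2 of 3 TPM1 probes (chr15:63353441-63354441 and chr15:63354416-63354475, plus strand), all on hg19 as the files give them. The TAGLN probe is spread over 390 bases of genome and the first TPM1 probe over 1001, so both join separate exons. Capitals mark the 26 bases that the 2 TPM1 probes share.
ACTA2: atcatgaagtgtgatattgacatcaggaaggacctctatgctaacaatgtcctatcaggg
TAGLN: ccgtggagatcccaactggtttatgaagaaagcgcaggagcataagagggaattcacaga
MYL9: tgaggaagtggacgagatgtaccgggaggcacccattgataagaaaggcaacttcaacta
TPM2, brighter probe: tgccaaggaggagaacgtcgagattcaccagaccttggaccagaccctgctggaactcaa
TPM2, other probe: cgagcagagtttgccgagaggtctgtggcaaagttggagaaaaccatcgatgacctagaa
TPM1, junction probe: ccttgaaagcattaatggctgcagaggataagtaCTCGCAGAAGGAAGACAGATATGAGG
TPM1, neighboring probe: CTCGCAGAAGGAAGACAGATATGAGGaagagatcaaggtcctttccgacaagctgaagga

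Spot intensities were divided by the 75th percentile of their array (157, 138 and 162 for H1975, OR1 and OR2), and the ratio of a line to H1975 was taken from these scaled values. Where a gene had several probes, the brightest stood for it. A probe called well above background by the scanner software was taken as measured. The scanner software called between 45.6% and 45.9% of 58200 probes well above background on each array, and no spot was saturated. Errors given with log2 ratios are technical SDs from the scanner software's error estimate, which holds a fixed 10% of each intensity and does not cover differences between cultures. All 6 epithelial markers of a lung adenocarcinoma line (KRT7, KRT8, KRT18, KRT19, EPCAM and CDH1) were well above background on all 3 arrays.

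The contractile genes fell into 2 sets. ACTG2, TAGLN, CNN1, MYL9 and TPM2 were at least 2 times as high in both OR1 and OR2 as in H1975, and ACTA2 was so in OR1 alone, whereas TPM1, CALD1, MYLK and CNN2 had ratios between 0.497 and 1.14 in both lines. By its brightest probe, each of the 10 was well above background in every line. In OR1, 6 of 10 had a ratio of at least 2, where 9.17% of the 21869 genes measured in that comparison did, and in OR2 5 of 10 did, against 7.72%. In both lines together the count was 5 of 10, against 5.09% of all genes. A ratio of at most 0.5 was seen for 0 of 10 genes in OR1 (9.58% of all genes) and for 1 of 10, CNN2, in OR2 (8.7%), and for 0 of 10 in both (6.32%). The median log2 ratio of the 10 genes was 1.96 for OR1 and 0.79 for OR2, beside 0.03 and -0.05 over all 18591 genes measured above background in every line. Since the genes were chosen with these ratios known, nothing is read from the counts, and both ratios share the H1975 array. More RNA per cell and more cells that express a gene cannot be told apart in RNA of whole cultures.

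**Figure D1:**
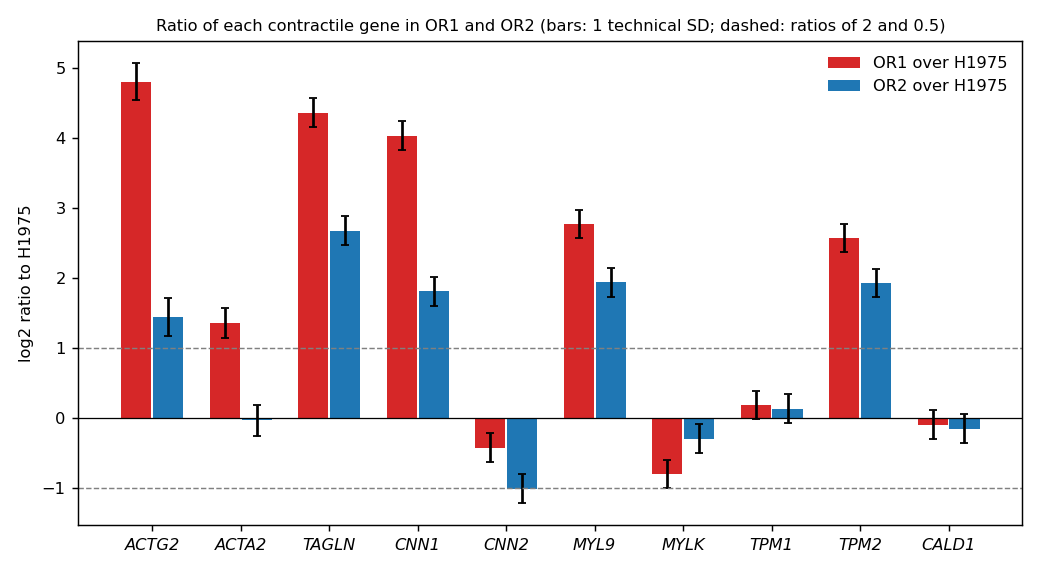
Log2 ratio of the brightest probe of each contractile gene in OR1 (red) and OR2 (blue) over H1975, with bars of 1 technical SD from 1 array per line. Dashed lines mark ratios of 2 and 0.5. ACTG2 reaches 4.80 for OR1 and 1.44 for OR2, while TPM1 and CALD1 lie between -0.15 and 0.18 in both lines.

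Of the actins, ACTG2 (probe at chr2:74146700-74146759, plus strand) was measured at an intensity of 25.2 (H1975), 616 (OR1) and 70.3 (OR2). It was thus dim in the parental line, and OR1 stood far above both other lines. The log2 ratio was 4.80 ± 0.26 for OR1 and 1.44 ± 0.27 for OR2, a ratio of 27.9 and 2.71. In OR1 this was rank 11 of 18591 genes from the top, and in OR2 rank 574. Under normexp, a model-based correction for the local background, the ACTG2 ratio was 8.84 for OR1 and 1.51 for OR2, so that OR2 no longer reached 2. A second ACTG2 probe (chr2:74130241-74130300) lies toward the 5′ end of the gene, is assigned to no RefSeq mRNA, and read 2.86, 6.83 and 3.02, in each line too low to be told from background.

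ACTA2, the smooth-muscle α-actin used as a marker of myofibroblasts, passed a ratio of 2 in OR1 only. Its intensity was 82.5 (H1975), 185 (OR1) and 82.8 (OR2), so that only OR1 stood apart. The log2 ratio was 1.35 ± 0.21 for OR1 and -0.03 ± 0.22 for OR2. The OR1 ratio of 2.56 fell under 2 with normexp (1.88) and with scaling on 7 spike-in control probes (1.69). Matches of the ACTA2 probe to other actin transcripts were not analysed here.

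TAGLN, CNN1 and CNN2 encode calponin-family actin-binding proteins. For TAGLN (chr11:117075155-117075214, plus strand), the intensity was 334 (H1975), 6012 (OR1) and 2193 (OR2). The probe across the exon junction gave 183, 3443 and 1339, the same order of the 3 lines. The log2 ratios were 4.36 ± 0.20 for OR1 and 2.68 ± 0.20 for OR2 for the former, and 4.42 and 2.83 for the latter. TAGLN had the highest ratio of the 10 genes in OR2, 6.39, at rank 131 of 18591 genes.

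CNN1 (chr19:11661005-11661064, plus strand) had an intensity of 210 (H1975), 3006 (OR1) and 757 (OR2). Both resistant lines stood above H1975, OR1 by the wider margin, with log2 ratios of 4.03 ± 0.20 for OR1 and 1.81 ± 0.20 for OR2, or ratios of 16.3 and 3.51. CNN2 (chr19:1038261-1038320, plus strand), the non-muscle relative, ran the other way, with 2503 (H1975), 1636 (OR1) and 1280 (OR2). Its probe is assigned to no RefSeq mRNA. The CNN2 ratio was 0.745 for OR1 (0.493 with spike-in scaling) and 0.497 for OR2. The OR2 value sits at the threshold of 0.5 and rose above it with quantile normalization, without scaling, with spike-in scaling, with normexp and in the authors' normalized values, where the count of genes at or under 0.5 in OR2 was 0.

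**Figure D2:**
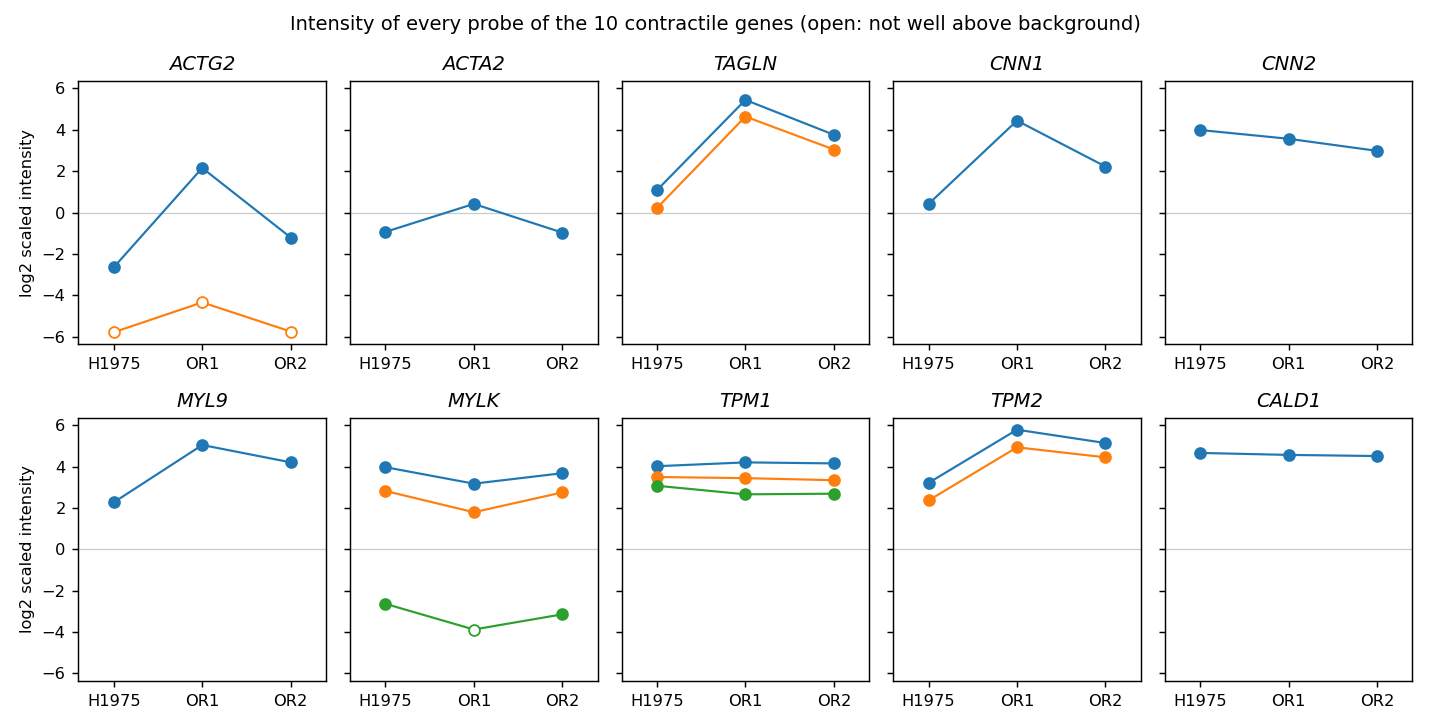
Log2 intensity of all 17 probes of the contractile genes, each divided by its array's 75th percentile, in H1975, OR1 and OR2 (1 array per line, 1 color per probe). Filled points are well above background and open points are not. Both TAGLN probes and both TPM2 probes run in parallel and peak in OR1, and the 3 TPM1 probes stay nearly level.

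Of the myosin regulators, MYL9, the smooth-muscle regulatory light chain, was measured at 758 (H1975), 4539 (OR1) and 2978 (OR2). Both resistant lines were clearly above H1975 and nearer to each other than for ACTG2 or CNN1. The log2 ratio was 2.77 ± 0.20 for OR1 and 1.94 ± 0.20 for OR2, or ratios of 6.83 and 3.83. MYLK, the kinase of this light chain, did not move with it. Its brightest probe (chr3:123333074-123333133, minus strand) read 2464 (H1975), 1244 (OR1) and 2068 (OR2), a ratio of 0.576 and 0.817. A second MYLK probe (chr3:123331161-123331220) gave 0.490 for OR1 and 0.951 for OR2. The third (chr3:123420314-123426617), near background at 25.4, 9.41 and 18.3, gave at most 0.513 in OR1. All 3 MYLK probes were thus lower in OR1 than in H1975, on either side of the 0.5 threshold, and spike-in scaling put the brightest at 0.381. The brightest and the second probe lie downstream of the third on the minus strand. Which MYLK transcripts each probe reads was not examined, so the bright values may not be those of the full-length kinase alone.

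The tropomyosins split. TPM2 (β-tropomyosin) had an intensity of 1455 (H1975), 7581 (OR1) and 5684 (OR2) in its brighter probe, and 808, 4202 and 3521 in the other. Both probes placed OR1 and OR2 well above H1975, at ratios of 5.94 and 3.80 for the brighter and 5.93 and 4.24 for the other. The log2 ratios of the brighter probe were 2.57 ± 0.20 for OR1 and 1.93 ± 0.20 for OR2. TPM1 (α-tropomyosin), in contrast, read 2546 (H1975), 2537 (OR1) and 2874 (OR2) in its brightest probe (chr15:63363361-63363420, plus strand). Its log2 ratio was 0.18 ± 0.20 for OR1 and 0.14 ± 0.20 for OR2, and as ratios the probes that share 26 bases gave 0.963 and 0.899 (neighboring probe) and 0.751 and 0.766 (junction probe). The 3 TPM1 probes therefore disagreed on which side of 1 the gene lay, and none reached 2 or 0.5.

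CALD1, caldesmon, was bright and level, with 3970 (H1975), 3259 (OR1) and 3676 (OR2). The log2 ratio of CALD1 (chr7:134655197-134655256, plus strand) was -0.10 ± 0.20 for OR1 and -0.15 ± 0.20 for OR2, both within 1 technical SD of 0, while spike-in scaling gave -0.69 for OR1. It lies on the long arm of chromosome 7, where the 373 genes between 90 and 150 Mb had a median log2 ratio of -0.84 for OR1 and -0.50 for OR2. CNN1 lies on chromosome 19 among 269 genes between 10 and 20 Mb with medians of 0.70 and 0.54, well under its own log2 ratios.

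OR1 and OR2 were then compared directly, without the H1975 array. ACTG2 was at a ratio of 0.0974 in OR2 over OR1, CNN1 at 0.215, TAGLN at 0.311 and ACTA2 at 0.382, so that 4 of 10 genes were at or under 0.5, where 2.89% of 21451 genes were. ACTG2 was rank 3 of 18591 genes from the bottom in this comparison and CNN1 rank 22. MYL9 (0.560), CNN2 (0.667) and TPM2 (0.640) were lower in OR2 by smaller margins, TPM1 and CALD1 were at 0.967 and 0.963, and MYLK alone was above 1, at 1.42 (2.26 with spike-in scaling). No gene was at or over 2, a ratio that 2.48% of all genes reached. The median log2 ratio of the 10 genes was -0.74, beside -0.07 over all 18591 genes. With spike-in scaling, under which the all-gene median for OR1 fell by 0.60 (log2), the median of the 10 genes was -0.07. TPM2 then stood at 1.02 and CNN2 at 1.06, while ACTG2 (0.155), CNN1 (0.342) and TAGLN (0.496) stayed at or under 0.5 and ACTA2 (0.609) did not.

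**Figure D3:**
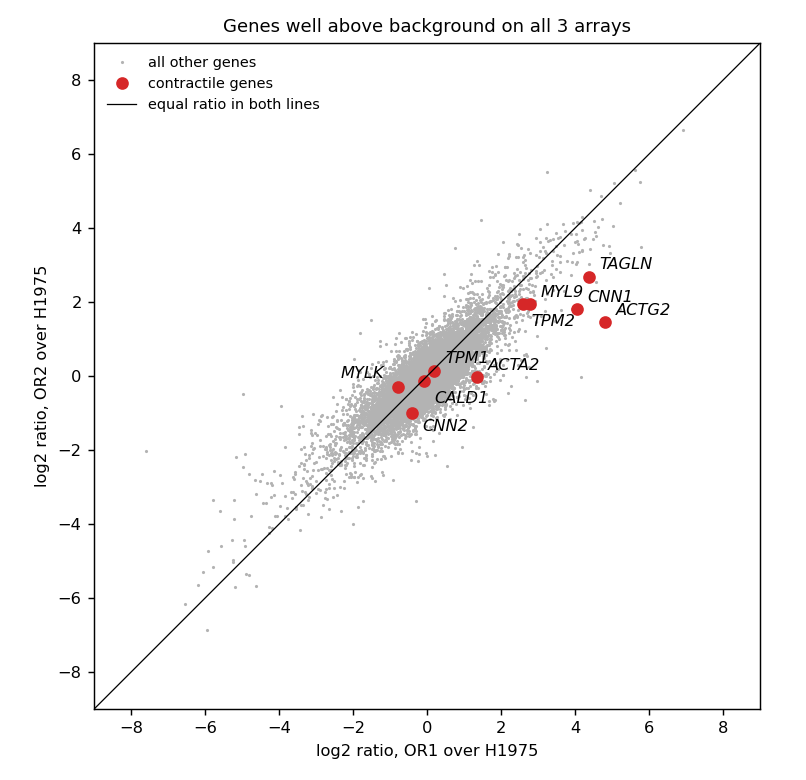
Log2 ratio over H1975 in OR1 (x axis) against OR2 (y axis) for 18591 genes measured above background in every line (grey), with the 10 contractile genes in red. Both axes share the H1975 array, so points are drawn toward the diagonal line of equal ratios. All of the 10 but MYLK lie to the right of that line, with a higher ratio in OR1 than in OR2. ACTG2, CNN1, TAGLN and ACTA2 lie farthest from it, and TPM1 and CALD1 lie close to it.

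The genes whose pair of ratios lay nearest to that of ACTG2, among 19395 genes well above background in OR1 and OR2, were CA9, CNN1 and KRBOX1. Their distances over the 2 log2 ratios were 0.55, 0.86 and 0.97. CA9, a carbonic anhydrase known as a hypoxia-induced gene, had ratios of 37.2 for OR1 and 3.49 for OR2. KRBOX1 had 15.0 and 3.51. Both genes were dim in H1975, at intensities of 34.1 (CA9) and 43.9 (KRBOX1). The distance rests on 3 arrays, was not computed under other ways of processing, and describes these lines only.

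Within their gene families, the contractile genes that were higher in OR1 and OR2 differed from their relatives. This arrangement by family was made after the values were seen. Of the other actins, ACTB and ACTG1, the cytoplasmic β- and γ-actins, had ratios of 1.01 and 0.675 (OR1) and of 0.811 and 0.710 (OR2), ACTA1, the skeletal actin, was near background at 27.3, 24.8 and 22.8, and ACTC1, the cardiac actin, was not detected. None of these 4 genes reached 2 or 0.5 as scaled here, and over the 3 with a ratio the median log2 value was 0.01 for OR1 (-0.04 with quantile normalization) and -0.30 for OR2. With spike-in scaling ACTB stood at 0.668 and ACTG1 at 0.447 in OR1. TAGLN2, the broadly expressed transgelin, was lower where TAGLN was higher, with an intensity of 17609 (H1975), 7530 (OR1) and 8782 (OR2) and a ratio of 0.488 and 0.485. These values lay at the edge of 0.5 and reached 0.503 for OR1 and 0.561 for OR2 with quantile normalization. CNN3 had ratios of 1.53 and 1.09, TPM3 0.582 and 0.604, and TPM4 1.44 and 1.12. With spike-in scaling TPM4 turned to 0.952 and TPM3 fell to 0.385 in OR1. The light chains MYL6, MYL12A and MYL12B had ratios between 0.793 and 1.09.

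**Figure D4:**
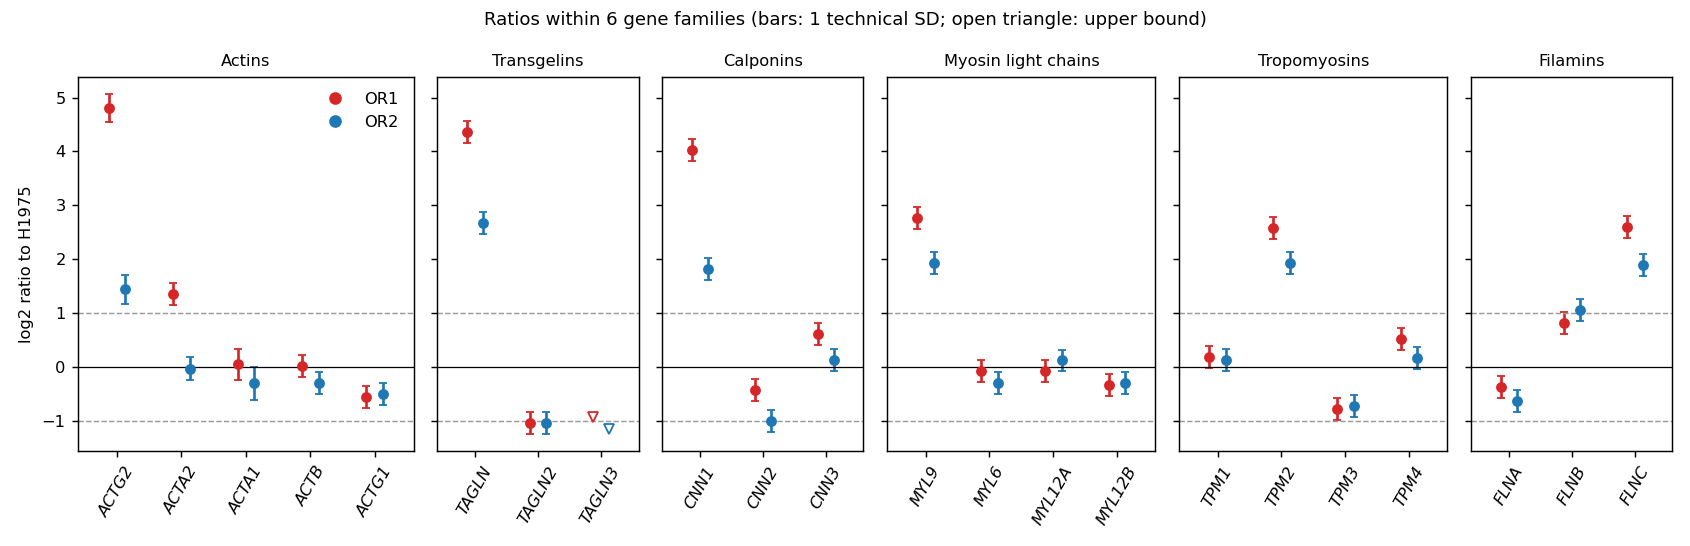
Log2 ratio to H1975 in OR1 (red) and OR2 (blue) for members of 6 gene families, with bars of 1 technical SD from 1 array per line and open triangles for upper bounds. ACTG2, TAGLN, CNN1, MYL9, TPM2 and FLNC stand above 1 in both lines, and in each family at least 1 relative lies near or under 0.

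Among 18 genes listed as non-muscle contractile genes, all detected, FLNC was at least 2 in both lines and TAGLN2 at most 0.5. That is 1 gene each way, near the shares of all genes, 5.09% and 6.32%. The former was FLNC, a filamin that cross-links actin in muscle, with an intensity of 160 (H1975), 850 (OR1) and 607 (OR2) and a ratio of 6.08 and 3.70. The latter was TAGLN2. The 18 genes had a median of -0.21 (log2) for OR1 and -0.11 for OR2, where quantile normalization gave 0.06. The OR1 median was -0.80 with spike-in scaling and -0.40 without scaling. With median scaling and without scaling, 2 of the 18 were at most 0.5 in both lines. Of 16 further smooth-muscle genes, 12 were detected, with a median log2 ratio of 0.44 for OR1 (-0.16 with spike-in scaling) and -0.21 for OR2. FHL1, a LIM-domain protein of muscle, was higher in both lines, with ratios of 2.38 and 2.96 that fell to 1.58 in OR1 with spike-in scaling. PDLIM7, another LIM-domain protein, was lower in both, at ratios of 0.325 and 0.272.

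SRF, which regulates many contractile genes, and its coactivators were read next. SRF read 54.6, 73.2 and 74.0 in H1975, OR1 and OR2, a ratio of 1.53 and 1.32 that came to 1.01 for OR1 with spike-in scaling. Its coactivators MRTFA and MRTFB, listed on the array as MKL1 and MKL2, had ratios of 0.860 and 0.744 (OR1) and of 0.622 and 0.948 (OR2), and MYOCD (myocardin) was not detected in any line, with intensities of 2.70, 5.74 and 9.01. None of the 4 was at 2 or 0.5 as scaled here, and the median log2 value was -0.22 for OR1 and -0.08 for OR2 (0.01 with quantile normalization). With spike-in scaling MRTFB stood at 0.492 in OR1 and the OR1 median at -0.81.

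SRF sites were looked for in RefSeq promoters (GRCh38.p14), as several of the genes higher in OR1 and OR2 are textbook SRF targets. The 250 bases before the annotated start were searched for a CArG box, whose middle 6 bases are all A or T, and for the same box with 1 of those bases changed. The motif reads alike on both strands. An exact box was found in 1.16% of 35116 promoters, and an exact or changed box in 7.04%. Of the 10 genes, 8 were matched by symbol in the promoter table, with 13 windows, and TAGLN and MYL9 were not searched. Exact boxes stood in 3 of these 8 genes, ACTG2, MYLK and CNN2. Changed boxes alone stood in a single window each of ACTA2 and CALD1, whose other windows had none. The shares above count promoters and not genes, and a gene with several windows had more places to match, so the counts of genes are not comparable with them. ACTG2 had a pair of exact boxes, starting 110 and 73 bases before the start, which 0.0313% of promoters had. The windows of ACTG2 (chr2:73892758-73893007, plus strand), ACTA2 (the start at chr10:88952774-88953023, minus strand), MYLK (chr3:123620549-123620798, minus strand) and CNN2 (chr19:1026358-1026607, plus strand) are shown because the first pair was higher in OR1 and the latter pair was not. Capitals mark the boxes, which begin 121 and 71 bases before the start in ACTA2, 94 in MYLK and 89 in CNN2.
ACTG2: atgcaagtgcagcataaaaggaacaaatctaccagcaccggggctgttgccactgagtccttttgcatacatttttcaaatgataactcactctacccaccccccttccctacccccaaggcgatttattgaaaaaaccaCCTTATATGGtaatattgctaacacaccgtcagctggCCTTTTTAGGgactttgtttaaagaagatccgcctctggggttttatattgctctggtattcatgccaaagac
ACTA2: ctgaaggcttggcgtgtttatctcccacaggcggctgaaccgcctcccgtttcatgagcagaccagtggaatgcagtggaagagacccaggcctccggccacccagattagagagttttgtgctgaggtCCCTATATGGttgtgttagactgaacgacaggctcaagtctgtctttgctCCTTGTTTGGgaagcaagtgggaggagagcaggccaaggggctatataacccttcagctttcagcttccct
MYLK: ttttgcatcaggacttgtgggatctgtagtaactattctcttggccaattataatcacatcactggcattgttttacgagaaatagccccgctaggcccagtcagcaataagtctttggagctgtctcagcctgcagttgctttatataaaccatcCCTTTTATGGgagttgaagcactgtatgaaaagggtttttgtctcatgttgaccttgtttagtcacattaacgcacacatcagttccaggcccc
CNN2: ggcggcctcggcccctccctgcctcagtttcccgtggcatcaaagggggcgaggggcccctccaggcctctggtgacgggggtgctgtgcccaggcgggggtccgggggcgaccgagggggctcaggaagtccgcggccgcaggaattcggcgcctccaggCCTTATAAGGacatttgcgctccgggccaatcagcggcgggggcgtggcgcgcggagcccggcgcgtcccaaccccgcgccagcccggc
CNN1 and TPM2, higher in both lines, had no such box in their windows, nor had TPM1. MYLK and CNN2, which were not higher, had 1 each. Sites outside the 250 bases were not searched, nor any of TAGLN and MYL9. These windows therefore cannot say whether boxes go with the ratios. MYLK was searched at a single annotated start. Which of its transcripts begins there was not examined, and it may not be that of the full-length kinase. A match is a run of letters and was not tested for binding.

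Markers of other cell types were read beside these values, since contractile genes are also marks of muscle cells and fibroblasts. Of 4 smooth-muscle markers, LMOD1 was not detected, MYH11, the smooth-muscle myosin heavy chain, was detected in OR2 alone, at an intensity of 14.7, and DES and SMTN did not reach 2 or 0.5. The median log2 ratio of DES and SMTN was 0.57 in OR1, and -0.03 with spike-in scaling. In OR2 the median of 3 was MYH11's own value, a lower bound of 0.19 (0.02 with normexp). The summed scaled intensity of the 4 was 2.38 (H1975), 3.49 (OR1) and 2.66 (OR2). Of 7 fibroblast markers, COL3A1, DCN, PDGFRA and THY1 were not above background on any array, and the summed scaled intensity of all 7 was 4.29, 4.98 and 0.663, most of it from COL1A1 (2.93, 4.24 and 0.536). COL1A2 went from 200 (H1975) to 28.3 (OR1) and 5.65 (OR2), where it was not well above background, and LUM was measured in OR1 alone, at 59.8. Of 6 sarcomeric markers, ACTC1, ACTN2 and MYH7 were not detected and TNNT2 was at most 0.368 and at most 0.334 (not past 0.5 with normexp), with a summed scaled intensity of 232, 109 and 140 that came almost wholly from TNNT1. Of 6 epithelial markers, KRT7, KRT19, EPCAM and CDH1 were at most 0.5 in both lines. KRT8 had ratios of 1.12 (OR1, 0.741 with spike-in scaling) and 0.964 (OR2), and KRT18 0.884 (0.585) and 0.806. The list had a summed scaled intensity of 2480 (H1975), 1071 (OR1) and 1064 (OR2). Most of its fall came from KRT7 (835, 137 and 142) and KRT19 (952, 441 and 469). EPCAM had a ratio of 0.0370 for OR1 and 0.0725 for OR2, and CDH1 0.0205 and 0.0800. In the authors' normalized values KRT19 stood at 0.574 in OR2. The part of these cell types in the values of the contractile genes was not tested.

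**Figure D5:**
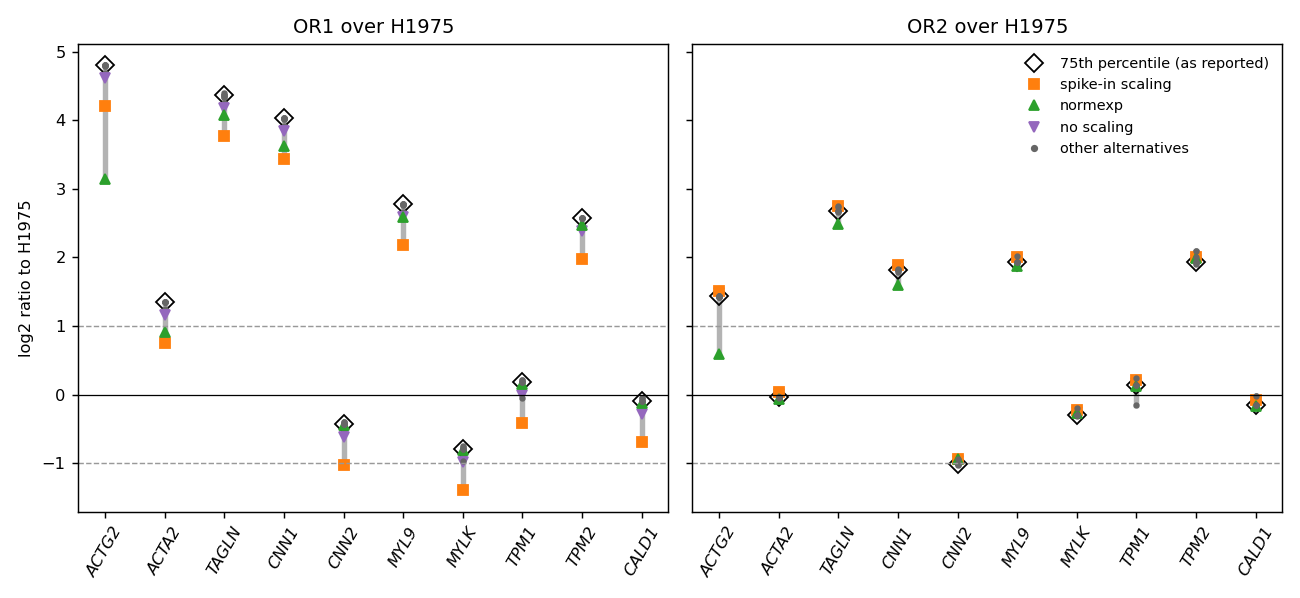
Log2 ratio of each contractile gene to H1975 in OR1 (left) and OR2 (right) as reported (diamonds) and under each other way of processing the arrays, with grey bars from the lowest to the highest. TAGLN, CNN1, MYL9 and TPM2 stay above 1 in both lines throughout, ACTG2 falls to 0.60 in OR2 with normexp, and ACTA2 falls to 0.76 in OR1 with spike-in scaling.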

How the data were processed

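RNA of H1975, OR1 and OR2 was measured on 1 array each, and each array was mapped to its line by its title. The authors deposited Agilent Feature Extraction files (version 10.7.1.1 in the file header, 9.5.1.1 in the submitters' processing notes), in which the intensity of a spot was corrected by that software for spatial trends on the array, and no scaling between arrays was applied. The authors also deposited a table of normalized intensities by a method not given in the sources used here.

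Control spots and outlier spots (45 to 61 per array) were dropped, spots of one probe were averaged as log2 intensities, and the array's 75th percentile was subtracted. Probes spotted 10 times had a median SD of 0.05 (log2) between spots on each array. A side of a ratio not well above background was set to the lowest intensity called so (11.4 to 12.6) or to its own if higher, and the ratio is a bound. Ratios of at least 2 and at most 0.5 followed the methods. With 1 array per line no p-value was computed, and the number of arrays limits the precision.

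The genes and all gene lists were chosen with earlier results of these data known. Named by rule were the 10 genes, genes of each list reported that were past 2 or 0.5 alike in both lines, and the 3 nearest to ACTG2, and other genes of the lists were named after their values were seen. Lists covered other actins, other smooth-muscle genes, non-muscle contractile genes, SRF and its coactivators, and markers of epithelial, smooth-muscle, fibroblast and sarcomeric muscle cells. One further list is not reported here. Alternatives were quantile, median, spike-in and no scaling, normexp (offset 50), the authors' normalized values, 2 other background filters, outlier spots kept, the median over probes, and ratios of 1.5 and 4. The counting was tested on simulated data. Python 3.11.15, pandas 2.3.3, R 4.3.3 and limma 3.58.1 were used.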

Additional observations from a re-analysis of the deposited data

How the results depend on the processing

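Of 300 ratios of single contractile genes under alternatives, 260 stayed within 1 technical SD of the reported log2 value. The other 40 moved beyond it, 20 of them with spike-in scaling, 10 without scaling, 8 with normexp and 2 with the median over probes. Some of the 260 could not have moved. The 2 other background filters leave these genes as they are, since each was well above background in every line by its brightest probe. The median over probes likewise cannot change a gene with a single measured probe. None of the 16 log2 ratios past 1 or -1 changed sign. Sign changes, 18 in all, were confined to ACTA2 in OR2, TPM1 in either line, and OR2 over OR1 for TPM1, TPM2, CNN2 and CALD1.

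For OR1, median log2 ratio of the contractile genes was 1.37 with spike-in scaling and 1.69 with normexp, against 1.96. For OR2, median log2 ratio of the contractile genes was 0.36 with normexp, against 0.79. The median of contractile genes in OR2 against OR1 moved from -0.74 to -0.51 (no scaling) and to -0.0693 (spike-in scaling). The number of contractile genes at a ratio of at most 0.5 in OR1 was 2 with spike-in scaling (MYLK and CNN2) and 1 with a ratio of 1.5, against 0. In OR2 it was 0 with quantile normalization, no scaling, spike-in scaling, normexp, the authors' normalized values and a ratio of 4, against 1. At a ratio of 4, contractile genes at a ratio of at least 2 in OR2, and likewise in both OR1 and OR2, numbered 1 in place of 5, since fewer genes pass by construction. Spike-in scaling and no scaling change each ratio between 2 arrays by 1 constant, the same for every gene. For OR1 over H1975 this constant was -0.60 and -0.19 (log2). For the remaining settings the cause was not tested. No paired analysis was possible because each line has 1 array. Signal over background limits ACTG2 most, whose H1975 intensity of 25.2 lies near the lowest level called well above background, 12.6.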

Other observations

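A pair of muscle genes was also measured in these epithelial cancer lines. TNNT1, the slow skeletal troponin T, read 36451 (H1975), 14957 (OR1) and 22598 (OR2), at ratios of 0.468 and 0.603. DES, desmin, the intermediate filament of muscle, had an intensity of 216, 302 and 313 and a ratio of 1.59 (1.05 with spike-in scaling) and 1.41. Both were measured above background in every line and were singled out after their values were seen. COL1A1, a fibrillar collagen, differed between the resistant lines, with an intensity of 461 (H1975), 585 (OR1) and 86.8 (OR2) and a ratio of 1.45 (0.959 with spike-in scaling) and 0.183.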
